A study of Mus musculus with 31 samples.

Results

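The 8 hippocampi described here came from mice that received the control vector of the study, rAAV-hSyn-mCherry without antigen, and were taken 2 days (4 mice) or 28 days (4 mice) after the injection. They were chosen by 2 labels, the vector and the time point, and are 8 of the 31 bulk RNA-seq libraries of the series. All mice were adult OT-I/Rag-/- animals, whose only T cells carry a transgenic receptor for an ovalbumin peptide and which lack RAG1 and therefore B cells and T cells with receptors of their own. The vector was injected into the dorsal CA1 region of both hemispheres, its hSyn promoter restricts mCherry to neurons, and the left hippocampus was sequenced. The label batch splits each time point evenly: D740 and D743 (2 d) and D705 and D706 (28 d) are in batch 1, and BEC-B544 and BEC-R385 (2 d) and D843 and D851 (28 d) are in batch 2. What the batch label stands for is not given in the sources used here. No mouse was left uninjected, so 28 d served as the late reference and not as a measure of the untouched hippocampus. The 2 time points also differ in the age of the mice by the interval between them, and the mice received ketoprofen, an anti-inflammatory analgesic before surgery and on the first days after it, so that the 2 d mice were still within this treatment and the 28 d mice were long past it.

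A needle track and a viral suspension in brain tissue are known to set off a stereotyped series of events. Damaged cells and viral nucleic acid are sensed by microglia, the resident macrophages of the brain, which divide, secrete complement and chemokines and recruit monocytes from the blood. Astrocytes respond with filament proteins such as GFAP and with acute-phase proteins, and interferons raise the machinery that presents peptides on MHC molecules.

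The 8 libraries held 20798247 to 31866682 counts over 15648 genes, with medians of 25288469 at 2 d and 25116810 at 28 d. Of 2 features that moved between single mice, the first was the level of Y-linked genes. Their summed level was 0.259 CPM (counts scaled to a library of 1000000) in D743 and 79.9 to 93.5 CPM in the other 7 mice, and D743 was the only such mouse of all 31. D743 also had the highest level of many genes described below, and several leading genes and list counts are also given without it. The labels give no sex, and whether D743 is a female mouse or an exchanged library was not tested. The second was choroid plexus tissue, since Ttr, the transthyretin gene of that epithelium, ranged from 34.4 CPM in D705 to 3953 CPM in D851, both at 28 d. None of the 12 choroid plexus markers passed the test between the time points. Camk2a, the kinase subunit of excitatory neurons in the hippocampus and in other forebrain regions, lay between 3993 and 5303 CPM in every mouse.

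At 2 d the control-injected hippocampus differed from 28 d almost entirely by higher levels. A gene was counted as differentially expressed (DEG) when its Log2FC between 2 d and 28 d reached 0.66 in either direction and its FDR did not exceed 0.05. In edgeR's quasi-likelihood test with batch as covariate, 885 genes (5.66% of those tested) were DEGs with higher and 35 (0.224%) with lower levels at 2 d. Together these were 920 genes or 5.88% of all. The median Log2FC was 1.62 among the higher DEGs and -1.12 among the lower DEGs, against -0.01 over all genes. Among the higher DEGs, 309 exceeded a Log2FC of 2, whereas 1 of the lower DEGs was below -2. In 852 of the 885 higher and 31 of the 35 lower DEGs the lowest mouse of the higher group lay above the highest mouse of the other, which was the case for 9.79% (higher) and 6.44% (lower) of all genes. Without D743 the counts were 648 and 16. Without D706 they were 408 and 8, without D705 437 and 18, without BEC-R385 535 and 18, and without D843 662 and 21.

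**Figure D1:**
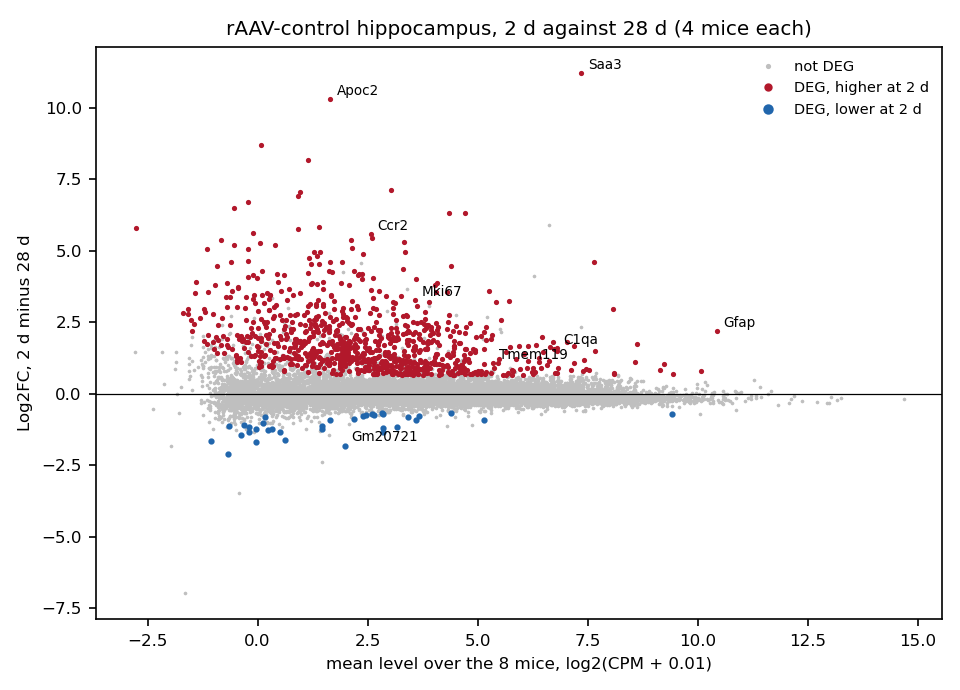
Each point is 1 of 15648 genes, with the mean level over the 8 mice on the x axis in log2(CPM + 0.01) and the Log2FC of 2 d against 28 d on the y axis. Red points mark the 885 DEGs with higher and blue points the 35 DEGs with lower levels at 2 d, and the red points reach far above the range of the blue.

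The gene with the largest change was Saa3, an acute-phase serum amyloid of inflamed tissue. Saa3 was measured at 231, 917, 98.7 and 67.1 CPM in D740, D743, BEC-B544 and BEC-R385 at 2 d, and at 0.307 and 0.161 CPM in D843 and D851 and 0 in D705 and D706 at 28 d. The time points were separated by more than 2 orders of magnitude in every mouse (Log2FC = 11.22 ± 0.99 SE, FDR = 0.0032 in edgeR's test). Without D743 the Log2FC was 10.18. Apoc2, an apolipoprotein that activates lipoprotein lipase, had 3.99 to 11.5 CPM at 2 d and no count in any of the 4 mice at 28 d. Measured against a floor of 3 counts over that group, Apoc2 was at least 200.5-fold higher at 2 d, and at least 149-fold without D743. Sirpb1c, of a family of signal-regulatory receptors with close copies among which reads may be divided, had 443 counts at 2 d and 1 at 28 d, a ratio of 420.3 with an exact 95% interval of 75.0 to 16637 that covers counting error only. Without D743 the ratio was 297 (52.8 to 11774).

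Other leading genes were highest in D743. Tgm1, a transglutaminase, was measured at 125 CPM in D743, 12.9 to 55.1 CPM in the other 2 d mice and at most 1.85 CPM at 28 d. Timp1, an inhibitor of matrix metalloproteinases, was measured at 116 CPM in D743, 8.66 to 22.7 CPM in the other 2 d mice and at most 0.724 CPM at 28 d. In both genes the lowest 2 d mouse still lay above all 28 d mice, and the Log2FC without D743 were 5.43 and 5.09. Chil3, Ccr2, Msr1 and Cfb were also among the 10 leading genes, with Log2FC between 5.30 and 5.85. Without D743 the Log2FC of Chil3 was 5.21 in place of 5.85 and that of Msr1 4.69 in place of 5.47, and that of Cfb was 4.72 in place of 5.30.

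Among DEGs with lower levels at 2 d, non-overlapping groups and at least 1 CPM in every 28 d mouse, the 10 leading genes had Log2FC between -1.81 and -1.13. The leading gene with a known protein was Ogn, the small proteoglycan osteoglycin of meningeal and vascular fibroblasts, with 6.52, 3.58, 3.81 and 2.61 CPM at 2 d and 10.4, 12.3, 7.19 and 11.2 CPM at 28 d (Log2FC = -1.34 ± 0.29, FDR = 0.024, edgeR). At 28 d the order of the mice in Ogn was that of the summed choroid plexus markers, from D705 (286 CPM) to D851 (6578 CPM). At 8 d D720 had more of these markers than D722 (2540 against 229 CPM) but less Ogn (5.44 against 13.5 CPM). The part of choroid plexus tissue in Ogn was not tested. Lag3, an inhibitory receptor that binds MHC class II, was measured at 2.46 to 6.86 CPM and 8.19 to 13.1 CPM (Log2FC = -1.19 ± 0.29). Both genes were lower in every 2 d mouse than in every 28 d mouse, but without D743 neither passed the test (FDR = 0.065 and 0.059, edgeR). In the list of pericyte and meningeal fibroblast markers 2 transporters fell, namely Slc6a13, which carries GABA and taurine (3.30 to 4.96 against 6.12 to 7.32 CPM, Log2FC = -0.76), and Slc22a6, which carries organic anions (2.00 to 2.27 against 3.14 to 5.25 CPM, Log2FC = -0.90). The other 15 members of that list of 17 did not pass the test. Most of the 10 leading lower genes were predicted or non-coding transcripts, led by Gm20721 (1.61 to 1.88 against 4.80 to 8.19 CPM, Log2FC = -1.81), followed by Gm47512, Gm14703, Chn1os1, AC157548.1, 4930506C21Rik, Zfp968, a zinc finger gene, and A230001M10Rik, with Log2FC between -1.69 and -1.13. Of these, AC157548.1 and 4930506C21Rik did not pass without D743 either (FDR = 0.067 and 0.085, edgeR).

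The genes were then read by cell type and pathway, in 34 lists of which the table held nearly every member (640 of 680 list places). Shares of DEGs in a list are read against the 5.66% (higher) and 0.224% (lower) of all genes, and median Log2FC against -0.01. In a bulk sample a larger number of cells of a type and more RNA per cell cannot be told apart.

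**Figure D2:**
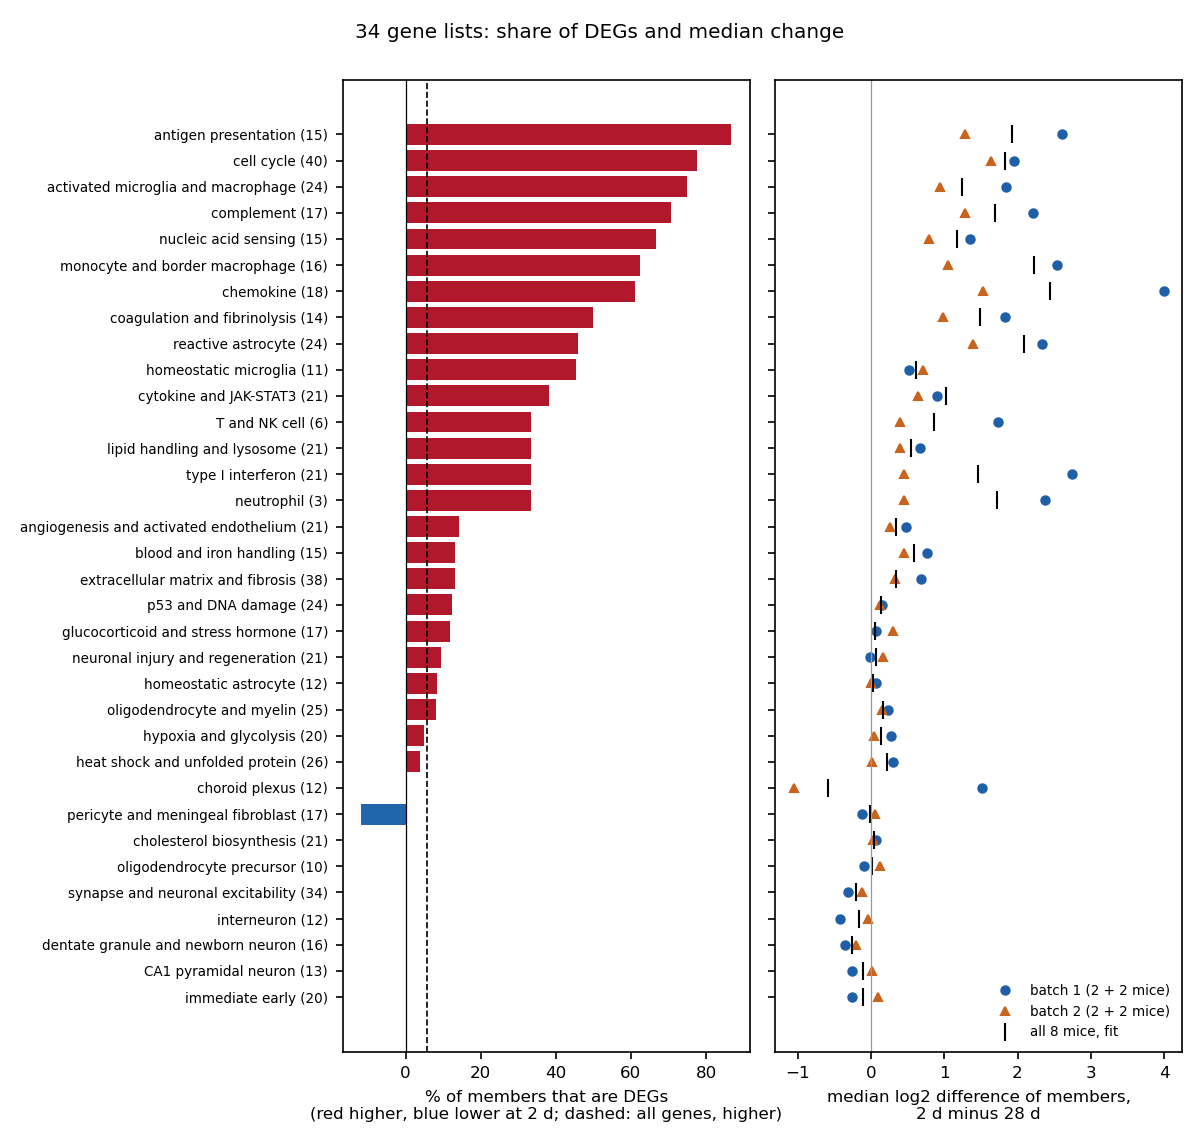
The left panel gives for 34 gene lists (number of tested members in brackets) the percentage of members that were DEGs with higher (red) or lower (blue) levels at 2 d, with the dashed line at 5.66% for all genes. The right panel gives the median log2 difference of the members between 2 d and 28 d in batch 1 (circles), batch 2 (triangles) and the fit of all 8 mice (bars), which is larger in batch 1 for most immune lists and lies near 0 for neuronal lists.

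Of the 11 homeostatic microglial markers 5 rose. Tmem119, a membrane protein of resident microglia, was measured at 56.5, 54.3, 48.4 and 61.3 CPM at 2 d and at 27.8, 26.2, 22.7 and 27.9 CPM at 28 d (Log2FC = 1.08 ± 0.10, FDR = 0.0022). Csf1r, the receptor for the growth factor that keeps microglia alive, was measured at 199 to 254 CPM and 121 to 129 CPM (Log2FC = 0.87 ± 0.09). Further DEGs were Olfml3 (1.24) and Cx3cr1, the fractalkine receptor (1.00). The list held 6 DEGs without D743, 2 in batch 2 alone, 2 in the fit of all 31 mice with surrogate variables and 1 in that of all 15 rAAV-control mice. The purinergic receptor P2ry12 (-0.36 ± 0.21) and the lectin Siglech (-0.39 ± 0.22), which mark surveying microglia, had negative Log2FC that did not pass the test (FDR = 0.31 and 0.30, edgeR).

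Of the genes of activated microglia and macrophages 18 of 24 rose, with a median Log2FC of 1.25 over the list. Cd68, a lysosomal glycoprotein of phagocytes, was measured at 25.8, 44.3, 24.01 and 37.8 CPM at 2 d and 7.56 to 8.73 CPM at 28 d (Log2FC = 2.02 ± 0.21, FDR = 0.0026). Tyrobp and Trem2, an adaptor and its lipid-sensing receptor, had Log2FC of 1.55 ± 0.20 and 1.00 ± 0.15. The largest changes of the list were found in Msr1, the class A scavenger receptor (5.47 ± 0.83, 2.73 to 29.6 against 0.0734 to 0.402 CPM), Lyz2, the lysozyme of myeloid cells (4.62), and Cybb, the catalytic subunit of the phagocyte oxidase (4.49). Apoe (-0.03) and Lpl (-0.30), which carry and cleave lipids, did not pass the test. The list held 6 DEGs without D706 and 14 without D743. Of the lysosomal and lipid-handling genes 7 of 21 rose, among them Lgmn, a lysosomal endopeptidase, at 183 to 262 against 103 to 108 CPM (Log2FC = 1.17 ± 0.10), and Grn, progranulin (1.51 ± 0.16). Without D705 this list held 3 DEGs and without D743 5. It held 5 in the fit of all 31 mice with surrogate variables, 3 in that of all 15 rAAV-control mice and 0 in batch 2 alone (edgeR).

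Ccr2, the chemokine receptor by which monocytes leave the marrow and enter inflamed tissue, was at or near 0 in the 28 d mice and present in every 2 d mouse. Its level was 8.74, 13.3, 12.3 and 12.3 CPM in D740, D743, BEC-B544 and BEC-R385, against 0.269, 0.604, 0 and 0.138 CPM in D843, D851, D705 and D706 (Log2FC = 5.59 ± 0.51, FDR = 0.0024, edgeR). Both batches reached like levels at 2 d. Of the 16 monocyte and border macrophage markers 10 rose, with a median Log2FC of 2.22, including Chil3, a chitinase-like protein of monocytes (5.85 ± 0.58), Ms4a7 (4.89 ± 0.52) and Ly6c2, a surface marker of inflammatory monocytes (2.51 ± 0.33). Among markers of resident border macrophages Mrc1 (0.21 ± 0.25), Lyve1 (-0.32 ± 0.41) and Cd163 (-0.55 ± 0.49) did not pass the test. Ms4a7, which such macrophages also carry, did pass, so the list does not separate them from monocytes. The list held 5 DEGs without BEC-R385, without D705 or without D706, and 8 without D743. Of 11 neutrophil markers 3 were in the table. Csf3r, the receptor for granulocyte colony-stimulating factor, which microglia also express, rose (12.6 to 26.8 against 3.50 to 6.44 CPM), and the list held 0 DEGs without D705, without D706 and in the fit of 15 mice (edgeR). S100a8, a calcium-binding alarmin of neutrophils, was measured at 10.2 and 28.7 CPM in D740 and D743 but at 0.240 and 0.464 CPM in BEC-B544 and BEC-R385, within or near the 0.154 to 0.322 CPM of 28 d, and did not pass the test (FDR = 0.052, edgeR).

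**Figure D3:**
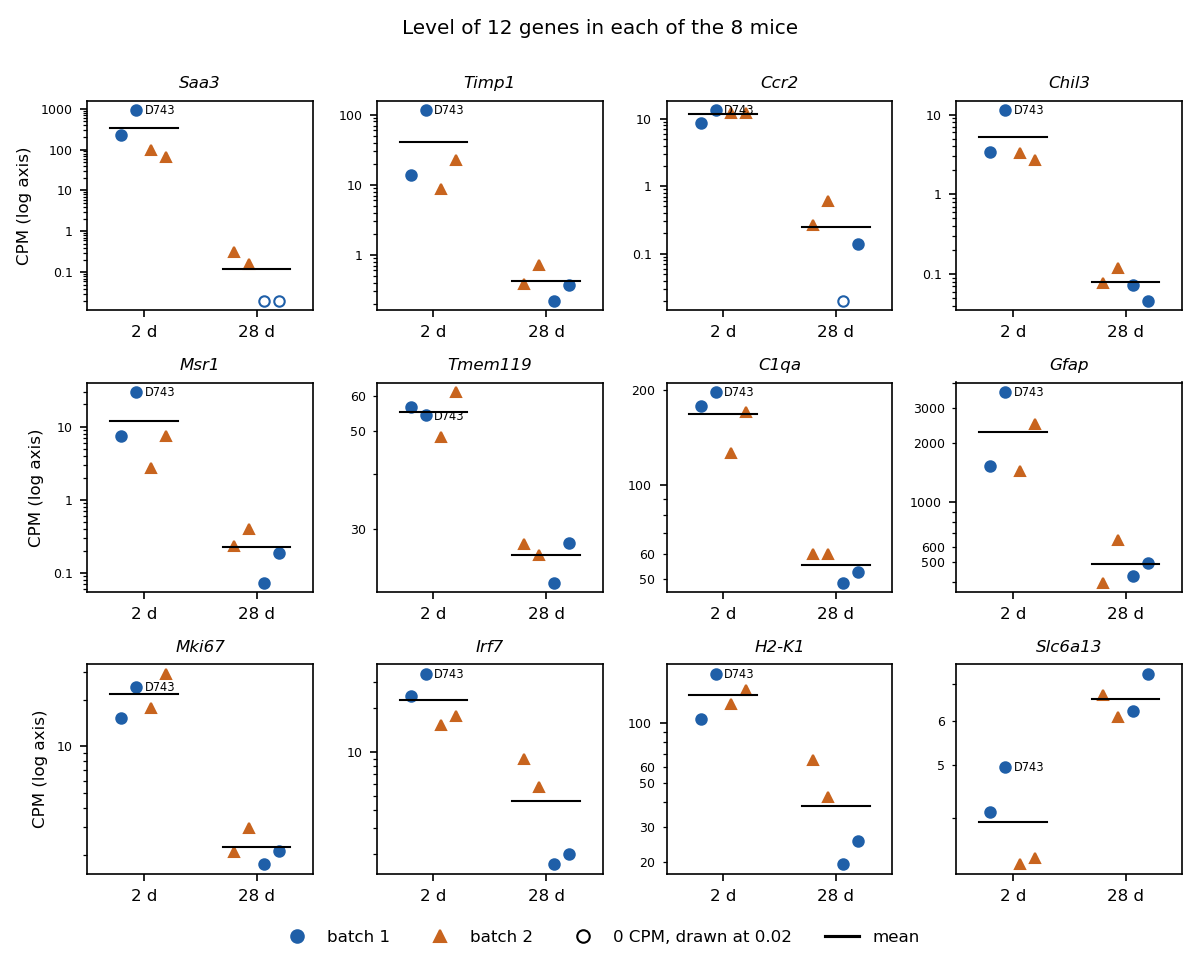
Level of 12 genes in CPM (log axis) in each of the 4 mice at 2 d and the 4 mice at 28 d, by batch (blue circles, batch 1; orange triangles, batch 2), with the mean as a line and open symbols for 0 CPM. D743 is the highest mouse for Saa3, Timp1, Chil3, Msr1 and Gfap but not for Tmem119 or Mki67, and Irf7 and H2-K1 at 28 d are higher in both mice of batch 2.

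Chemokines, the genes that attract such cells, rose in 11 of 18 cases (median Log2FC 2.45). Ccl5, which attracts T cells and monocytes, was measured at 12.5, 23.3, 18.4 and 20.4 CPM at 2 d and 2.07, 1.69, 0.0734 and 0.368 CPM at 28 d (Log2FC = 4.37 ± 0.58). Ccl2, Ccl7 and Ccl12, the ligands of CCR2, had Log2FC of 3.86 ± 0.90, 4.31 ± 0.54 and 4.03 ± 1.00. Cxcl16, a membrane-bound chemokine, reached 13.998 to 54.0 against 1.33 to 3.10 CPM. Neuronal Cx3cl1 (-0.07) and Cxcl14 (-0.09) did not pass the test, nor did the vascular Cxcl12 under the limit on Log2FC (-0.48 ± 0.11, FDR = 0.031). The list held 6 DEGs without D740, and as many without D743, D705 or D706.

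Among cytokines and their JAK-STAT3 signalling genes 8 of 21 rose. Il1b, a master cytokine of injury released by myeloid cells, was measured at 7.82 and 9.96 CPM in the 2 mice of batch 1 and 0.749 and 1.21 CPM in the 2 mice of batch 2 at 2 d, against 0.0768 to 0.220 CPM at 28 d (Log2FC = 4.82 ± 0.46, FDR = 0.0024, edgeR). Every 2 d mouse thus exceeded every 28 d mouse, with a wide gap between batches. Tnf (5.28 ± 0.90), the IL-1 antagonist Il1rn (4.98 ± 1.22), the feedback inhibitor Socs3 (3.20 ± 0.58) and Stat3 itself (0.91 ± 0.19) were further DEGs, whereas the receptor chains Il6st (0.03), Lifr (-0.28) and Il1r1 (0.18) were not. Without D705 the list had 2 DEGs. It had 7 in the fit of all 31 mice with surrogate variables, 3 in that of all 15 rAAV-control mice and 0 in batch 2 alone (edgeR).

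The genes of C1q, the recognition molecule of the classical complement pathway made by microglia, all rose. C1qa was measured at 179, 197, 126 and 170 CPM at 2 d and 60.0, 59.9, 48.7 and 52.6 CPM at 28 d (Log2FC = 1.60 ± 0.14, FDR = 0.0022), and C1qb (1.58 ± 0.16) and C1qc (1.65 ± 0.12) rose as well. The proteases C1ra (2.75) and C1s1 (2.80), C4b (1.69), factor B (Cfb, 5.30 ± 0.93), the anaphylatoxin receptors C3ar1 (3.58) and C5ar1 (2.70), the inhibitor Serping1 and the integrin chains Itgam and Itgb2 were also DEGs, giving 12 of 17. C3, the convergence point of the cascade, was higher in every 2 d mouse (31.6 to 359 CPM against 1.43 to 18.3 CPM) but did not pass the test (Log2FC = 4.13 ± 1.12, FDR = 0.067, edgeR). C2, a protease of the same pathway, did not pass. Leaving out any single mouse gave 9 to 12 DEGs, whereas the fit of 15 rAAV-control mice gave 2 and both the fit of 31 mice and batch 2 alone gave 7.

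Gfap, the intermediate filament of reactive astrocytes, was measured at 1531, 3592, 1444 and 2491 CPM at 2 d and at 395, 651, 427 and 496 CPM at 28 d (Log2FC = 2.19 ± 0.33, FDR = 0.010, edgeR). The groups did not overlap and D743 was the highest. All 24 genes of the reactive astrocyte list had positive Log2FC with a median of 2.08, and 11 were DEGs, among them the protease inhibitor Serpina3n (2.97 ± 0.50), the hyaluronan receptor Cd44 (2.75 ± 0.52), the pentraxin Ptx3 (4.04 ± 0.88) and Aspg (1.98 ± 0.31). Other members had large values that varied widely between mice. Lcn2, the iron-scavenging lipocalin, was measured at 160, 514, 32.3 and 77.4 CPM at 2 d and at 0.307, 8.45, 0.110 and 0.322 CPM at 28 d (Log2FC = 5.91 ± 1.46, FDR = 0.052), and Vim (2.34, FDR = 0.056) and S1pr3 (2.68, FDR = 0.059) likewise did not pass in edgeR's test. The list held 2 DEGs without D706 and 11 without D743. The homeostatic astrocyte list held 1 DEG of 12, Aldh1l1, a folate enzyme (0.78 ± 0.19), with the glutamate transporter Slc1a2 (-0.38 ± 0.10) and glutamine synthetase Glul (-0.25 ± 0.09) short of the limits. The list held 0 DEGs without D743, BEC-R385, D843, D851, D705 or D706, each left out alone (edgeR).

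Genes of the cell cycle rose in 31 of 40 cases. Mki67, the proliferation antigen Ki-67, was measured at 15.3, 24.2, 17.7 and 29.3 CPM at 2 d and 2.07, 2.98, 1.73 and 2.12 CPM at 28 d (Log2FC = 3.29 ± 0.24, FDR = 0.0022), and the highest mouse was BEC-R385 of batch 2. The list had a median Log2FC of 1.82, and its members differed by a median of 1.96 in the mice of batch 1 and 1.64 in those of batch 2. Thymidine kinase Tk1 had a Log2FC of 4.55, and among the mitotic genes were the kinases Aurkb (3.68) and Cdk1 (3.25 ± 0.30), the cyclins Ccnb2 (3.06) and Ccnb1 (2.81 ± 0.26) and the spindle protein Prc1 (2.49 ± 0.23). Among the genes of entry into S phase Mcm3 (1.48), Mcm5 (1.32), Mcm2 (0.99) and Mcm7 (0.73) were DEGs, and Ccne1 (0.01), Ccne2 (0.43), Mcm4 (0.27), Mcm6 (0.30) and Cdc45 (0.43) were not. Leaving out each mouse in turn gave 27 to 32 DEGs.

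The start regions of 2 of these genes, chosen for holding both motifs, are shown because promoters of mitotic genes are known to hold CCAAT boxes and the cell cycle homology element TTTGAA. Each stretch is the 150 bases before an annotated start from RefSeq (GRCm38.p6), 5′ to 3′ on the strand of the gene, with matches to TTTGAA or CCAAT on either strand in capitals. The first lies at chr7:135716380-135716529 (minus strand) and the second at chr10:69352913-69353062 (minus strand).
Mki67: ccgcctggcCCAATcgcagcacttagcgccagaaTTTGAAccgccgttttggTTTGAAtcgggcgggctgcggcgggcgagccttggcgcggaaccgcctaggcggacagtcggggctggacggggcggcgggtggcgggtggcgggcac
Cdk1: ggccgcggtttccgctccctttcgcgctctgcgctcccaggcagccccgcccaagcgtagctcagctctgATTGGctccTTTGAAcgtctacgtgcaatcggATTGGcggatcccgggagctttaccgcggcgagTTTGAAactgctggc
In the same 150 bases Ccnb1 held CCAAT but no TTTGAA, and of 2 starts of Prc1 1 held both and 1 held CCAAT alone. Over the 250 bases before the start, TTTGAA occurred in 32.4% of the 34 cell cycle genes with a RefSeq promoter, in 20.1% of the 681 higher DEGs that had one and in 12.8% of 11714 tested genes. For CCAAT these shares were 76.5%, 37.4% and 40.1%. In the other lists searched CCAAT ranged from 10% of 10 complement genes to 90.9% of 11 antigen presentation genes. A match describes the letters of the window and is not a binding site.

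Genes of MHC class I and II presentation rose in 13 of 15 cases (86.7%), with a median Log2FC of 1.93. H2-K1, the heavy chain of the class I molecule H-2Kb, was measured at 105, 177, 124 and 147 CPM at 2 d and 65.1 and 42.2 CPM (D843 and D851, batch 2) or 19.4 and 25.5 CPM (D705 and D706, batch 1) at 28 d (Log2FC = 1.98 ± 0.33, FDR = 0.013). Peptide transporter Tap1 (1.84 ± 0.23), the immunoproteasome subunits Psmb8 (2.11) and Psmb9 (2.00 ± 0.29), B2m (1.48), the class II chains H2-Aa (2.25), H2-Ab1 (2.43) and H2-Eb1 (2.08) and the class II transactivator Ciita (2.59) were DEGs too. Reads of H2-K1, H2-D1 and H2-Q7 may be divided among near-identical class I genes. Its members differed by a median of 2.61 in batch 1 and of 1.28 in batch 2. The DEGs numbered 9 without D743 and 3 without D706. In edgeR's test the list held 0 DEGs in batch 2 alone, in the fit of all 15 rAAV-control mice and in that of all 31 mice with 2 surrogate variables, against 15 in DESeq2 on the 8 mice.

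Of the 21 type I interferon target genes, all with positive Log2FC (median 1.46), 7 rose, among them Irf9, Bst2, Ifih1, Irf7, Zbp1 and Ifi27l2a. Irf7, an interferon-induced transcription factor, was measured at 24.001, 34.3, 15.3 and 17.6 CPM at 2 d, at 8.91 and 5.75 CPM in the 28 d mice of batch 2 and at 1.69 and 1.98 CPM in those of batch 1. Isg15, a ubiquitin-like protein, reached 13.3 and 11.6 CPM in batch 1 and 3.78 and 5.29 CPM in batch 2 at 2 d, against 4.07 and 2.13 CPM (batch 2) and 0.551 and 0.782 CPM (batch 1) at 28 d. Isg15 thus overlapped between time points and did not pass (Log2FC = 2.19 ± 0.74, FDR = 0.11, edgeR). The members of this list differed by a median of 2.74 in batch 1 and 0.45 in batch 2. Tested in the mice of batch 1 alone 20 of the 21 were DEGs, and in those of batch 2 alone 1 was. The list held 2 DEGs without D706, 3 without D743, D851 or D705 and 4 without D740 or BEC-R385. In edgeR's test it held 0 in the fit of all 15 rAAV-control mice and 2 in that of all 31 mice with surrogate variables, against 14 in DESeq2 on the 8 mice.

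**Figure D4:**
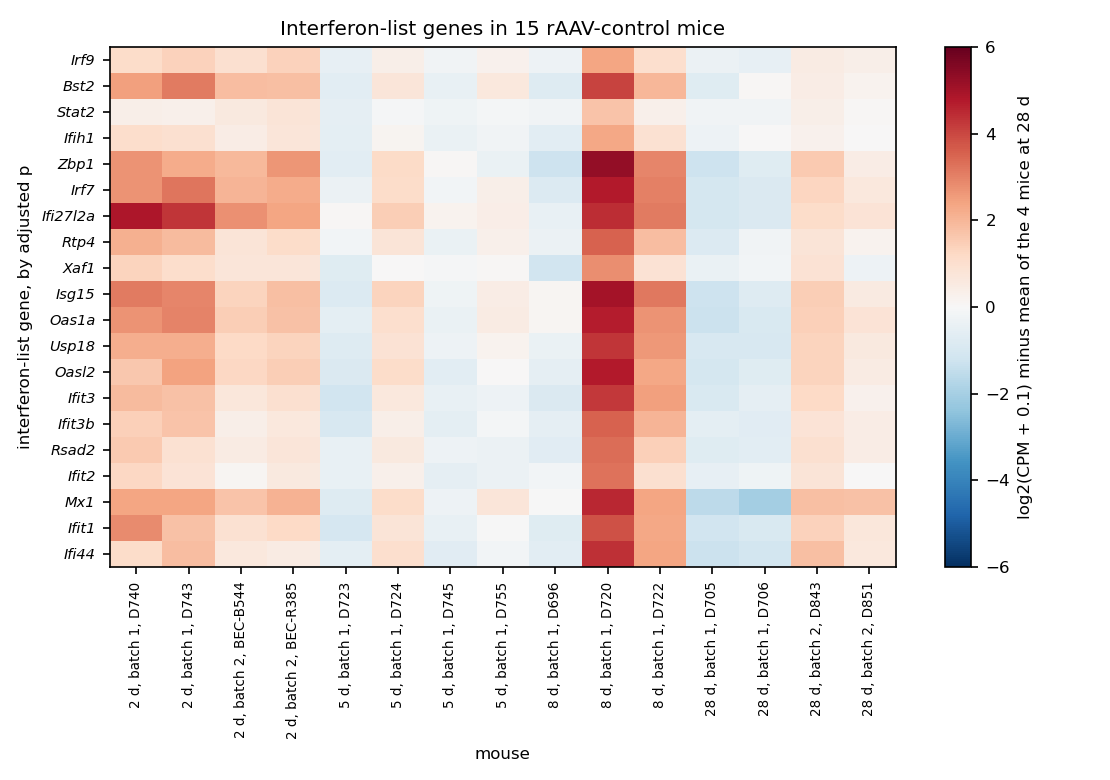
Heat map of 20 interferon target genes (rows, ordered by adjusted p) in 15 rAAV-control mice (columns, by day and batch), coloured by log2(CPM + 0.1) minus the mean of the 4 mice at 28 d. At 28 d the mice of batch 1 are mostly below and those of batch 2 mostly above the mean, the 4 mice at 2 d are mostly above it, and D720 at 8 d shows the highest level of most genes.

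Bst2, the membrane tether tetherin, is shown by its start region because it was a DEG of this list with 2 overlapping matches to the interferon-stimulated response element (searched as GAAA, any 2 bases, then GAAA), and a match to TTCNNNGAA, the gamma-activated site, in the 150 bases before a RefSeq start (GRCm38.p6, chr8:71537473-71537622, minus strand, matches on either strand in capitals).
Bst2: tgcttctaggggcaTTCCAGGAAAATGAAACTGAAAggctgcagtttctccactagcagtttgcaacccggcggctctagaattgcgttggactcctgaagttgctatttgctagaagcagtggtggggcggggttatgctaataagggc
In the same 150 bases Irf9, another DEG of this list, held no match to these motifs. Tap1 and Psmb9 of the antigen presentation list held none either. Bst2 itself was measured at 24.7, 39.0, 16.1 and 15.8 CPM at 2 d and 6.07, 5.19, 2.61 and 4.65 CPM at 28 d (Log2FC = 2.30 ± 0.37). Within 250 bases before the start, the response element was found in 53.3% of the 15 interferon list genes with a RefSeq promoter, 18.2% of the 11 antigen presentation genes, 8.52% of the 681 higher DEGs and 3.29% of all 11714. For TTCNNNGAA the shares were 20%, 9.09%, 9.84% and 7.16%.

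In the nucleic acid sensing list, which holds adaptors, nucleases and other genes beside the sensors, 10 of 15 rose (median Log2FC 1.17). The DNA sensor Tlr9, which reads unmethylated CpG as found in vector genomes, was measured at 4.49 to 7.55 CPM at 2 d and 1.28 to 1.93 CPM at 28 d (Log2FC = 1.77 ± 0.23, FDR = 0.0044), and its chaperone Unc93b1 (1.57 ± 0.16), Sting1 (1.32 ± 0.18) and Tlr2, a receptor for microbial lipoproteins (3.57 ± 0.55), rose as well. In all 4 of these genes every 2 d mouse lay above every 28 d mouse. The list held 4 DEGs without D706, 7 without D743, 3 in batch 2 alone, 1 in the fit of 31 mice and 0 in that of 15 mice (edgeR). Of the p53 target genes, which respond to DNA damage, 3 of 24 rose, all of them receptors of the tumour necrosis factor family, namely Fas (1.90 ± 0.34), Tnfrsf10b (1.34 ± 0.26) and Eda2r (1.31 ± 0.32), with a list median of 0.13. Without D706 the list held 0 DEGs in edgeR's test.

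Of 14 T and NK cell genes 6 were in the table. Cd52 (3.86 ± 0.57), a surface glycoprotein that myeloid cells also carry, and Il2rb (1.48 ± 0.28), a chain of the IL-2 receptor, rose. The list held 1 DEG without D705 or D706 and 0 in the fit of 15 mice (edgeR). Trac, the constant region of the T cell receptor alpha chain, was measured at 8.79, 8.07, 6.17 and 6.32 CPM at 2 d, 9.41 and 6.36 CPM in the 28 d mice of batch 2 and 1.87 and 1.66 CPM in those of batch 1. It did not pass the test (0.87 ± 0.50, FDR = 0.31, edgeR), nor did Cd8a (0.0460 to 0.607 CPM over the 8 mice), Lck or Gzmb. The 28 d mice of batch 2 thus had higher Trac, MHC and interferon target levels together, and their relation was not tested.

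In the extracellular matrix list 5 of 38 rose, namely Tgfbi (3.59 ± 0.77), the growth factor Tgfb1 (1.51 ± 0.21), fibronectin Fn1 (1.17 ± 0.25), Thbs1 (0.90 ± 0.20) and the basement membrane collagen Col4a1 (0.66 ± 0.10, at the limit). The fibrillar collagens did not pass the test, with Col1a1 at 0.24 ± 0.20, Col1a2 at 0.03 ± 0.19 and Col3a1 at 0.92 ± 0.26 (FDR = 0.058, edgeR). Without BEC-R385, D843 or D705 1 matrix gene was a DEG. Without D743 Thbs1 did not pass (FDR = 0.058, edgeR) and Col4a1 fell below the limit on Log2FC (0.59). In the coagulation and fibrinolysis list 7 of 14 rose, including urokinase itself, Plau (0.98 ± 0.23, 3.48 to 5.93 against 1.70 to 3.01 CPM), and its receptor Plaur (2.78 ± 0.60), and the list held 0 DEGs without D706 (edgeR). Plau did not pass without D743 (FDR = 0.089, edgeR). Of endothelial and angiogenic genes Ch25h, Vcam1 and Aplnr rose (3 of 21), of blood and iron genes the light ferritin Ftl1 (330 to 878 against 222 to 252 CPM, 1.10 ± 0.22) and the metal transporter Slc11a1 (2 of 15), and of hypoxia and glycolysis genes hexokinase Hk2 (1 of 20, 5% and thus below the share of all genes). Ch25h, which makes 25-hydroxycholesterol, is also expressed by macrophages. Vcam1 (44.8 to 90.4 against 32.2 to 45.6 CPM) and Aplnr (0.338 to 1.29 against 0.0920 to 0.483 CPM) overlapped between the time points, and without D743 neither passed the test (FDR = 0.075 and 0.13, edgeR). The blood and iron list held 4 DEGs without D743. The endothelial and the hypoxia list held 0 DEGs without BEC-R385, D843, D705 or D706, and the blood and iron list held 0 without D705 or D706, each left out alone (edgeR).

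The CA1, dentate and newborn neuron, interneuron and synapse lists held 0 DEGs in edgeR's test. In the synapse list 33 of 34 genes had negative Log2FC with a median of -0.21, against -0.01 over all genes, 20 had an unadjusted p under 0.05 (4287 of all 15648 genes did), and 7 were lower in every 2 d mouse than in every 28 d mouse (6.44% of all genes were). Syt1, the calcium sensor of vesicle release, was measured at 1114, 1022, 1275 and 1225 CPM at 2 d and 1496, 1471, 1556 and 1300 CPM at 28 d (Log2FC = -0.33 ± 0.08, FDR = 0.028). The share of counts from mitochondrial genes was also lower at 2 d within each batch, at 6.21 and 7.28% against 7.83 and 7.92% in batch 1 and 5.31 and 5.42% against 5.96 and 5.93% in batch 2. The 13 mitochondrial genes had a median Log2FC of -0.26, and 2 of them, ATP8 (-0.71) and ND6 (-0.90), fell. The part of this share in the neuronal values was not tested. Medians were -0.10 for 13 CA1 markers, -0.26 for 16 dentate and newborn neuron markers and -0.17 for 12 interneuron markers. Immediate early genes, which follow neuronal firing, varied between mice of both time points, as Arc (101 to 280 against 115 to 252 CPM) and Egr1 (101 to 246 against 81.8 to 203 CPM) overlapped widely, and 0 of 20 were DEGs (edgeR). Atf3 is a stress transcription factor of injured neurons that other stressed cells also induce. Among injury and regeneration genes Atf3 (2.55 to 7.77 against 0.690 to 1.65 CPM, 2.23 ± 0.42) and Tnfrsf12a, the TWEAK receptor (1.19 ± 0.21), rose, and the other 19 did not pass. This list held 1 DEG without D705 or D706, and 0 in batch 2 alone and in the fit of 15 mice (edgeR).

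Klk6, a protease of oligodendrocytes, and transferrin Trf rose (2 of 25 or 8%, near the 5.66% of all genes, 2.59 ± 0.49 and 1.03 ± 0.24), while precursor markers (0 of 10) and cholesterol synthesis genes (0 of 21, median 0.05) held no DEG. Of the genes induced by glucocorticoids Cebpd (1.37 ± 0.26) and the metallothionein Mt2 (0.79 ± 0.17) were DEGs (2 of 17, median 0.05), and of the heat shock and unfolded protein genes Atf3 was (1 of 26, 3.85%). Chaperones such as Hspa8 (0.08 ± 0.08) and Hsp90aa1 (-0.17 ± 0.07) did not pass the test. The oligodendrocyte and the heat shock list held 0 DEGs without BEC-R385, D705 or D706, the glucocorticoid list 0 without BEC-R385 or D705 and 1 without D743, and all 3 held 0 in the fit of 15 mice (edgeR).

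The lists differed in how far their counts depended on the mice that entered the fit. In the fit of all 15 rAAV-control mice cell cycle genes had 29 DEGs of 40, monocyte and border macrophage genes 8 of 16 and reactive astrocyte genes 7 of 24, whereas activated microglial and macrophage genes had 5 of 24 and chemokine genes 1 of 18. With all 31 mice and 2 surrogate variables these counts were 25, 8, 17, 6 and 6. In the mice of batch 2 alone they were 3, 4, 0, 3 and 2.

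The change was then compared between the batches, each with 2 mice per time point. The median difference of the 885 higher DEGs was 1.88 in batch 1 and 1.19 in batch 2, 826 of the 920 were larger in batch 1, and the lower DEGs had medians of -0.99 and -1.04. A test of the interaction between day and batch called no gene (0% of 15648, lowest FDR 0.1, 1725 genes at an unadjusted p under 0.05, edgeR), whereas DESeq2 called 138. Without D743 edgeR called 349 genes, 329 of them with the smaller change in batch 2, among which were 9 of the 21 interferon target genes. Without D740 it called 9.

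The course between 2 d and 28 d was followed in 4 rAAV-control mice at 5 d and 3 at 8 d, all of batch 1. In a fit of all 15 rAAV-control mice no gene was a DEG at 5 d (0%, 816 genes at an unadjusted p under 0.05) or 8 d (0%, 1045 genes) against 28 d in edgeR's test, and DESeq2 called 1 gene higher and 1 lower at 5 d and 81 higher and 4 lower at 8 d. In that same fit 301 genes were higher and 6 lower at 2 d. Since 3 comparisons share the 4 mice at 28 d, their values are set side by side without a test between them.

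Mki67 was measured at 21.6 ± 6.36 CPM (SD, n = 4) at 2 d, at 1.77, 4.47, 2.97 and 4.78 CPM at 5 d and at 2.22 ± 0.53 CPM (n = 4) at 28 d. Every 5 d mouse thus lay below every 2 d mouse. Ccr2 had 0.362 to 1.26 CPM at 5 d against 8.74 to 13.3 CPM at 2 d, and Saa3, with 3.67, 2.22, 19.1 and 54.6 CPM at 5 d, was still above all 28 d mice in all 4. Gfap had 538, 957, 772 and 1535 CPM at 5 d, of which D755 alone reached the range of 2 d. Tmem119 (28.4 to 47.6 CPM at 5 d) and C1qa (62.5 to 170 CPM) lay above all 28 d mice in each of the 4 mice at 5 d, without passing the test (FDR = 0.95 for both, edgeR).

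As a list score, defined as the mean log2 CPM of the members minus that of the 28 d mice, cell cycle genes went from 1.87 ± 0.33 (SD, n = 4) at 2 d to 0.43 ± 0.23 (n = 4) at 5 d and 0.58 ± 0.88 (n = 3) at 8 d. The 8 d mean rested largely on D720, with 1.59 against -0.03 in D696 and 0.16 in D722. Reactive astrocyte genes went from 2.19 ± 0.77 to 0.79 ± 0.55 and 0.84 ± 1.02, and monocyte and border macrophage genes from 2.14 ± 0.67 to 0.67 ± 0.39 and 1.33 ± 0.76. At 8 d D720 scored 2.00 and 2.12 on these lists, against 0.11 and 0.59 in D696 and 0.40 and 1.27 in D722. Homeostatic microglial genes stood at 0.48 ± 0.20, 0.47 ± 0.23 and 0.60 ± 0.67. The 8 d mean of this list also rested largely on D720, with 1.32 against 0.003 in D696 and 0.48 in D722. Interferon target genes went from 1.63 ± 0.44 to -0.02 ± 0.59 at 5 d, and stood at 1.80 ± 2.18 at 8 d with a spread larger than the mean. All mice at 5 and 8 d were of batch 1, whereas the zero of the score is the mean of both batches at 28 d, where D843 and D851 of batch 2 scored 1.07 and 0.46 and D705 and D706 of batch 1 scored -0.88 and -0.65. The scores at 5 d, -0.60, 0.74, -0.32 and 0.10, lay above both 28 d mice of batch 1. Antigen presentation genes had a like split at 28 d, with 1.19 and 0.42 in batch 2 and -0.95 and -0.66 in batch 1. D720 stood apart from the other 2 mice at 8 d and had 102 CPM of Irf7 and 654 CPM of H2-K1, where D696 had 2.03 and 28.0 CPM and D722 30.6 and 92.6 CPM. D720 also had 415 CPM of Csf1r and 409 CPM of C1qa, above every mouse at 2 d. Its score for T and NK cell genes was 4.50, against 0.80 in D696 and 1.21 in D722, and Il2rb, a receptor chain for interleukins of T and NK cells, had 11.98 CPM in D720, 1.27 in D696 and 1.09 in D722. The 4 mice that received rAAV-OVA and were taken at 2 d, which had the same surgery, scored 1.137 ± 0.30 for cell cycle, 1.32 ± 0.09 for reactive astrocyte and 1.57 ± 0.72 for interferon target genes.

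**Figure D5:**
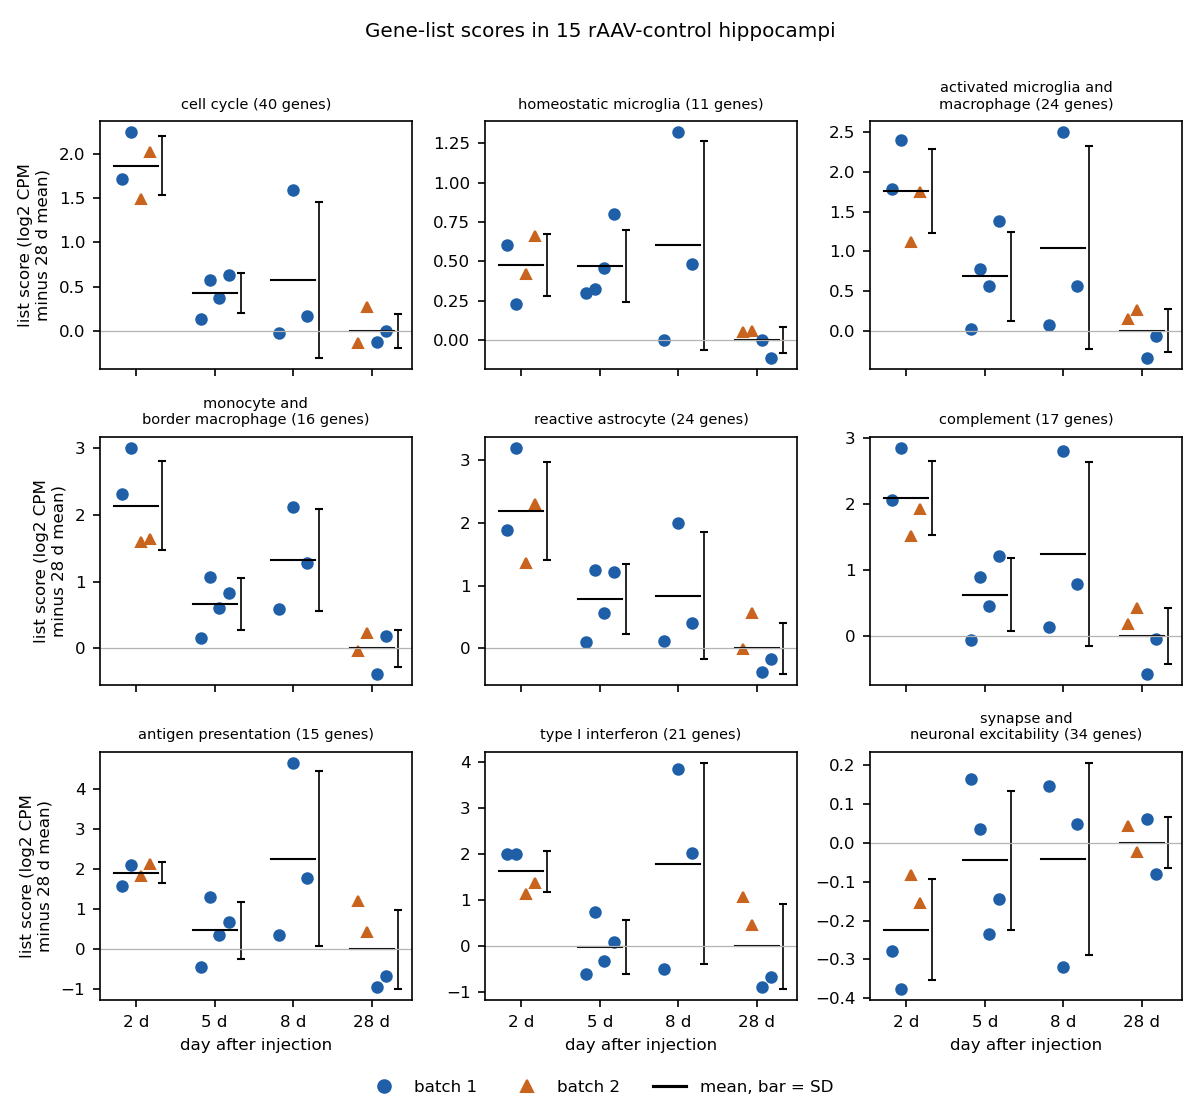
Scores of 9 gene lists (mean log2 CPM of the members minus the mean of the 28 d mice) in 15 rAAV-control mice at 2, 5, 8 and 28 d, with 1 symbol per mouse by batch, the mean as a line and the SD as a bar. Cell cycle scores at 2 d lie above all mice at 5 d and 28 d, the means of the homeostatic microglial scores at 2, 5 and 8 d lie within each other's SD, and 1 mouse at 8 d, D720, is the highest of its group in every list but that of the synapse, where it is the lowest.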

How the data were processed

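Left hippocampi were sequenced as bulk mRNA (TruSeq, paired-end). Per the study's methods, the authors trimmed reads with fastp, quantified them with Salmon 1.8.0 on GENCODE M29 and summed transcripts to genes with tximeta. The deposited values are estimated counts per gene, given as whole numbers, for genes that reached 15 counts in 15 samples or more, and they are not normalized. The submitters' processing notes also name DESeq2 1.36.0. Genes without a symbol (824) were named by identifier where possible (815). Here edgeR 4.0.16 (R 4.3.3) was used with TMM factors (0.950 to 1.05 in the 8 mice), robust dispersions, glmQLFit and glmQLFTest, batch as covariate and Benjamini-Hochberg adjustment over 15648 genes. The limits for DEGs were 0.05 for the FDR and 0.66 for the size of the Log2FC. SE is the Log2FC over the square root of F, and log2 CPM used a prior count of 2. The interaction of day and batch was fitted on the 8 mice, and 5 d and 8 d on all 15 rAAV-control mice. The scripts were tested on simulated data. Named genes were the 10 DEGs with the largest Log2FC in each direction (groups not overlapping, at least 1 CPM in every mouse of the higher group) and, per list, up to 4 DEGs with the smallest FDR or else the 2 members with the highest CPM. Further genes of these lists were named after their values were seen, and some genes are not reported here. Members and lists were chosen with earlier results of these data known. DESeq2 1.42.0, limma 3.58.1, sva 3.50.0 and ashr 2.2.63 served as alternatives. Promoter stretches came from RefSeq, whose build differs from that of the counts. Each mouse gave 1 library, and p-values measure the spread between these mice.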

Additional observations from a re-analysis of the deposited data

Results flagged for a closer look

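In each group of 4 mice the highest or lowest mouse was set against the other 3 for the named genes and list scores, and a value was marked where its gap to the nearest mouse was larger, as a share of the whole range, than the 95% limit of Dixon for 4 samples. This was the case in 27 of 447 groups or 6.04%, where chance marks about 1 in 20.

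D743, the 2 d mouse of batch 1 with almost no Y-linked transcripts, was marked 10 times, 7 times as the highest and 3 times as the lowest mouse of its group. It was the highest for Timp1 (116 CPM, the others 8.66 to 22.7), Apoc2 (11.5 CPM, the others 3.99 to 4.93), Sirpb1c (8.58 CPM, the others 2.82 to 3.11) and Chil3 (11.4 CPM, the others 2.68 to 3.38). The same held for C3ar1, the receptor for the C3a fragment (71.8 CPM, the others 19.7 to 28.1), Csf3r (26.8 CPM, the others 12.6 to 13.6) and Hmgcs1, an enzyme of cholesterol synthesis (469 CPM, the others 294 to 308). D743 was the lowest for the non-coding A230001M10Rik (0.949 CPM, the others 1.89 to 2.07) and for the Y-linked Ddx3y (0.129 CPM, the others 33.3 to 36.8) and Kdm5d (0 CPM, the others 18.9 to 21.3).

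Other 2 d mice were marked once each. BEC-R385 was highest for Tap1 (25.5 CPM, the others 15.02 to 15.9), BEC-B544 for the score of neuronal injury and regeneration genes (0.21 on the log2 scale, the others 0.16 to 0.17), and D740 was lowest for Neurod2, a transcription factor of excitatory neurons (130.0 CPM, the others 154 to 159).

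At 28 d D851 was highest for Tgm1 (1.85 CPM, the others 0.0734 to 0.269), Ch25h (0.925 CPM, the others 0.184 to 0.294) and Sirpb1c (0.0402 CPM, the others 0). D705 was highest for Gm47512 (1.65 CPM, the others 1.38 to 1.43) and D706 for Lgmn (108 CPM, the others 102.6 to 102.8).

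At 5 d D755 was highest for Csf1r (259.5 CPM, the others 146 to 165), Sting1 (9.33 CPM, the others 5.93 to 6.23), Tnf (0.309 CPM, the others 0.0370 to 0.0453) and Apoc2 (1.11 CPM, the others 0.0453 to 0.225), and lowest for Gm14703 (0.490 CPM, the others 1.96 to 2.22). D724 was highest for 2 genes of the choroid plexus, Ttr (3557 CPM, the others 19.6 to 99.3) and Enpp2 (1916 CPM, the others 203 to 228), and for Ogn (10.5 CPM, the others 4.96 to 5.89). D745 was lowest for Zfp968 (0.864 CPM, the others 3.47 to 3.76).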

How the results depend on the processing

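Against the 885 higher and 35 lower DEGs between 2 d and 28 d, a fit of all 31 mice with 8 groups gave 417 and 20 with 2 surrogate variables, the covariates of the study's methods, and 445 and 16 with the batch label. A fit of all 15 rAAV-control mice gave 301 and 6, and the mice of batch 2 alone gave 80 and 6. The lower DEGs numbered 21 with ashr shrinkage in DESeq2 and 21 among genes with at least 15 counts in each mouse, a filter that tests fewer genes. Without the limit on Log2FC there were 1137 and 451, so that the share of higher genes went from 96.2% to 71.6%. Counts for no batch covariate, the Wald test of DESeq2, limma voom, DESeq2 size factors and batch 1 alone lay within 1.5 times the main counts. Batch 1 alone shared 472 of its 618 higher but 2 of its 24 lower DEGs with the main lists. Leaving out 1 mouse gave 408 to 932 higher and 8 to 41 lower DEGs. The counts moved by more than 1.5 times without D706 (408 and 8), D705 (437 and 18) or BEC-R385 (535 and 18), and the lower count also without D743 (16) or D843 (21). None of the 94 DEGs that the rule for named genes chose reversed under any alternative run. Of these, 30 were DEGs in the fit of 15 mice, 25 in batch 2 alone and 50 to 91 without 1 mouse. The interaction of day and batch, with 0 genes, had 138 in DESeq2 and 0 to 349 without 1 mouse (D743 349, D740 9). At 5 d batch 1 alone gave 1 higher gene (Gm10108) and DESeq2 1 higher (Aplnr) and 1 lower (Gm2436). At 8 d batch 1 alone gave 1 higher gene (Gm10108), the 31 mice with surrogate variables 1 lower (6030443J06Rik), DESeq2 81 higher and 4 lower (Cdc14b, Cbln3, Car8 and Gm49519), and leaving out 1 mouse 0 to 19 higher and 0 to 7 lower, the highest counts without D696. These few genes are named after their values were seen, and the cause of these shifts was not tested. No paired analysis was possible because each mouse gave 1 library and the replicate numbers used here are names only, with nothing in the labels that joins a 2 d mouse to a 28 d mouse.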
